A study of Mus musculus with 2 samples.

Results

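The genes described here encode SRF, the actins and the proteins that cross-link, bend, contract or anchor actin filaments, measured in MC3T3-E1 cells, a mouse osteoblastic line. They are 39 of the 55487 gene rows in the table, taken by symbol as SRF-linked actin cytoskeleton and contractile genes. Each symbol stood on 1 row. All 39 had a total of 20 or more counts over both libraries, the minimum for a row to be compared, as had 16408 rows in all. One library came from cells given 10 nM parathyroid hormone (PTH) and the other from untreated cells, both labelled 1 h. Per the labels, the cells grew in medium containing 10% serum and were plated in 12-well plates at 25000 cells per cm2, 24 h ahead of treatment. The PTH library held 70036872 counts and the untreated library 66302211.

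SRF is a DNA-binding factor that acts through a short AT-rich element, the CArG box. In resting cells its coactivators, the MRTF proteins, are held by monomeric actin, and they enter the nucleus when monomers are drawn into filaments. Many genes of the actin cytoskeleton are SRF targets, Srf among them. A separate set of cofactors, the ternary complex factors of the Elk family, links SRF to MAP kinase signalling and immediate-early genes. In osteoblastic cells PTH acts through a receptor that raises cyclic AMP, and cyclic AMP signalling is known to loosen stress fibres.

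With 1 library per condition there is no replicate check and no p-value. The ratios below are PTH over untreated, from counts scaled by library size (as CPM where levels are given). The brackets after them hold a 95% exact interval that covers counting error only, taking reads as independent, and it is approximate if the deposited counts were derived from coverage, which the labels do not state. A gene is called lower or higher when its whole interval lies beyond 1.5-fold. Fewer transcripts per cell cannot be told apart from a change in the make-up of the culture. Summed over their lists, adipocyte markers were at 0.795 CPM after PTH and 0.685 untreated, endothelial markers at 1.56 CPM after PTH and 1.28 untreated, and macrophage markers at 10.5 CPM after PTH and 6.02 untreated. Within the macrophage list Cd14 was called higher, with 173 counts after PTH and 14 untreated, a ratio of 12.0 (6.96 to 22.4), Lyz2 was at 1.63 and Csf1r at 1.23, and Cd68 was at 0.826. Of the 18 markers of these 3 lists 9 were at 0 in both libraries, Adipoq, Cdh5 and Ptprc among them. Striated muscle markers were at 1.17 CPM after PTH and 2.87 untreated, with 3 of 8 at 0 in both. In counts after PTH and untreated, Acta1 was at 28 and 124, Des at 33 and 62, and Myh3 at 0 and 7. Ttn went the other way, at 16 and 0, as did Myog, at 4 and 0. Smooth muscle and pericyte markers, several of which mesenchymal cells also express, were at 582 CPM after PTH and 644 untreated, a sum over markers whose ratios differed. Mcam was called higher, with 1469 counts after PTH and 412 untreated, a ratio of 3.46 (3.10 to 3.87), while Smtn was at 0.695 and Des at 0.517, and Cspg4, Pdgfrb and Notch3 were at 0.892, 0.951 and 1.01. The part of these markers in the results below was not tested. All 8 osteoblast markers had counts in both libraries, but Bglap was barely detected, at 1.26 CPM after PTH and 0.849 untreated. Sp7, at a ratio of 0.418 (0.397 to 0.441), was called lower. The ratios of the others were 0.774 for Ibsp, 0.952 for Spp1, 1.02 for Alpl, 1.03 for Runx2, 1.05 for Col1a1 and for Col1a2, and 1.48 (1.05 to 2.11) for Bglap.

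Of the 39 genes, 10 were lower in the PTH library and 0 were higher. Over all rows compared, 3.54% were lower and 5.39% were higher. Most of these genes are abundant. Among the 9549 rows with 1000 or more counts 1.57% were lower, against 9 of the 37 members of that depth. In the same rows 3.25% were higher, against 0 of the 37. The 39 genes were chosen with earlier results of these data known, so these contrasts describe the set and give no independent support. The 10 genes were Lmod1, Filip1l, Srf, Cnn1, Fhl2, Tgfb1i1, Vcl, Actb, Pdlim7 and Lima1, in order from the lowest ratio. The median log2 ratio was -0.28 over the 39 genes and 0.00 over all rows. The interval lay wholly below 1 for 33 genes and wholly above 1 for 5 (Tagln2, Cald1, Myh10, Tpm3 and Tpm4). Over all rows these shares were 29.2% and 29.4%. Of the 9549 rows with 1000 or more counts, 34.0% lay wholly below 1 and 3225 rows wholly above.

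The 1.5-fold rule takes no account of variation between cultures, which 1 library each cannot show. The interval was then widened for an assumed coefficient of variation of 0.2 per library. Lmod1 and Filip1l alone of the 39 stayed lower, where 1.63% of all rows did. Of the 9549 rows with 1000 or more counts, 34 did. With 0.1 assumed, 4 did (Lmod1, Filip1l, Srf and Cnn1), where 2.46% of all rows did. Without widening, 3 had an interval wholly beyond 2-fold lower (Lmod1, Filip1l and Srf), where 1.60% of all rows did, and 16 had one wholly below a ratio of 0.8, where 7.39% of all rows did.

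**Figure D1:**
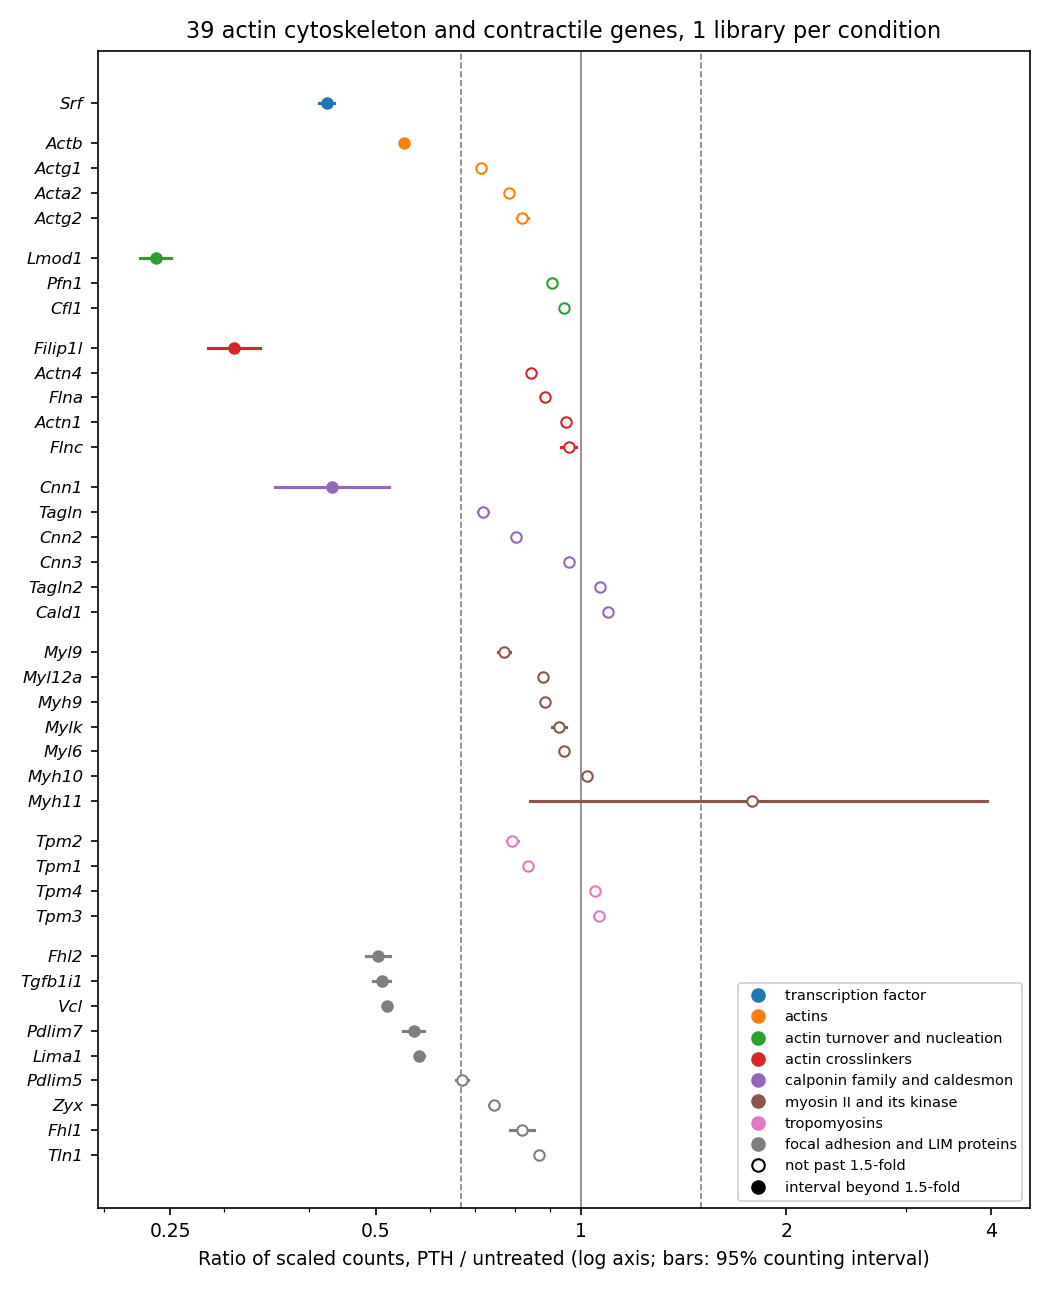
Ratio of scaled counts, PTH over untreated, for each of the 39 genes by role, on a log axis. Bars are 95% counting intervals, filled points have the whole interval beyond 1.5-fold, and dashed lines mark 1.5-fold either way. The 10 filled points all lie to the left, from Lmod1 at 0.238 to Lima1 at 0.580, and the open points lie between Pdlim5 at 0.669 and Cald1 at 1.10, but for Myh11 at 1.78 with a wide interval.

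Srf itself had 8731 counts in the PTH library and 19982 in the untreated library, a ratio of 0.424 (0.414 to 0.435). The PTH library was thus below the untreated one by far more than counting error. Srf lies at chr17:46548329-46556175 on the minus strand of GRCm38 (the build also called mm10). The genes of its partners stood close to 1. Mrtfa, an MRTF coactivator, had 7637 counts after PTH and 6817 untreated, a ratio of 1.09 (1.05 to 1.12), and its relative Mrtfb was at 0.932 (0.883 to 0.985). The ternary complex factor genes Elk3 and Elk4 were at 1.03 and 1.09. Of 7 SRF cofactor genes 6 were compared, and 0 of them were called in either direction. Over all rows 3.54% were lower and 5.39% higher, so 0 of 6 is near those shares. The remaining one, Myocd, the muscle-type coactivator, was listed at 4 counts after PTH and 0 untreated.

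The promoters of 34 of the 39 genes are in the RefSeq table (GRCm38.p6, 250 bases before to 50 after each start, 42 promoters). The others are Actb, Actg2, Myh11, Tagln and Tgfb1i1. A CArG box, read as CC and GG around a run of A and T bases, stood in the promoters of 10 of the 34 genes, or 29.4%, and in those of 1.81% of the 27025 genes in the whole table. By promoter the shares were 26.2% of 42 and 1.63% of 32851. Because the genes were picked as SRF-linked, a higher share than over all genes was built into the choice and is no result. The stretches that hold these boxes are shown because they carry the element that SRF binds. Each is written in the direction of transcription and ends before the start, with the box in capitals.
Srf (chr17:46556195-46556264, minus strand): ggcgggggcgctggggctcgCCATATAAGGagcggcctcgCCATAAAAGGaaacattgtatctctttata
Vcl (chr14:20929151-20929200, plus strand): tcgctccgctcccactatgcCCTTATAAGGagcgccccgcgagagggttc
Lima1 (chr15:99820167-99820216, minus strand): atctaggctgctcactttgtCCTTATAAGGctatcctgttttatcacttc
Filip1l (chr16:57549160-57549209, plus strand): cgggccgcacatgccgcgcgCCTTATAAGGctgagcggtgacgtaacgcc
Fhl2, upstream start (chr1:43196828-43196877, minus strand): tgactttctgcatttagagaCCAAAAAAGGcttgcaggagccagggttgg
Fhl2, downstream start (chr1:43163963-43164012, minus strand): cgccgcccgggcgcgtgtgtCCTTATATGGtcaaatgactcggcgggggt
Actg1 (chr11:120348556-120348605, minus strand): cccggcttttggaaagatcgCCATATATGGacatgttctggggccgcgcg
Myl9 (chr2:156775283-156775332, plus strand): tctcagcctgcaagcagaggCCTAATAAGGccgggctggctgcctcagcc
Cnn2 (chr10:79988524-79988573, plus strand): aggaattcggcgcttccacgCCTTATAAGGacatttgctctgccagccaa
Fhl1 (chrX:56779561-56779610, plus strand): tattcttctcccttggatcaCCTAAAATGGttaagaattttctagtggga
Myl6 (chr10:128493030-128493079, minus strand): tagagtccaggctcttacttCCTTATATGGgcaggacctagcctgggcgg

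Srf carried 2 boxes, whose first bases lie 82 and 62 bases before the start. The same CCTTATAAGG box stood in Vcl, Lima1, Filip1l and Cnn2, at 227, 47, 62 and 56 bases before the start. The RefSeq starts beside the boxes of Lima1, Filip1l, Fhl1 and Myl6 lie well inside the gene, as does the downstream Fhl2 start. Ratios are per gene, over all its transcripts, so they do not show which start was used. Of the 10 genes with a box, 5 were lower after PTH (Srf, Vcl, Lima1, Filip1l and Fhl2), and their ratios ran from 0.310 to 0.945 with a median of 0.647. Of the 24 with a promoter but no box, 3 were lower (Lmod1, Cnn1 and Pdlim7), and the median ratio was 0.885. In these windows a box was neither shared by all the lower genes nor limited to them. Beyond the 39, 168 compared genes had a CArG box in a promoter, and 16 of these (9.52%) were lower and 8 (4.76%) higher. Of the 10557 compared genes without one, members included, 2.89% were lower and 4.39% higher. Among the 16 were Acta1, Egr2 and Lmcd1, described further on, and among the 8 were Zfp36 at 1.81 and Mknk2 at 1.75. Some genes called in either direction had few counts. Gm34583 had 0 after PTH and 20 untreated, and Ccdc78 had 28 after PTH and 6 untreated.

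The TEAD motif GGAATG, bound by the partners of YAP, was searched on both strands and stood in 13 of the 34 genes (38.2%), against 16.6% of all genes. Of these 13, Lmod1 and Vcl (15.4%) were lower, against 6 (28.6%) of the 21 with a promoter but no such motif. The median ratio was 0.886 with the motif and 0.794 without. Beyond the 39, 3.47% of 1556 compared genes with the motif were lower. Vcl held both motifs, in different places. The cyclic AMP response element TGACGTCA was in Myl6 alone, against 2.03% of all genes.

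**Figure D2:**
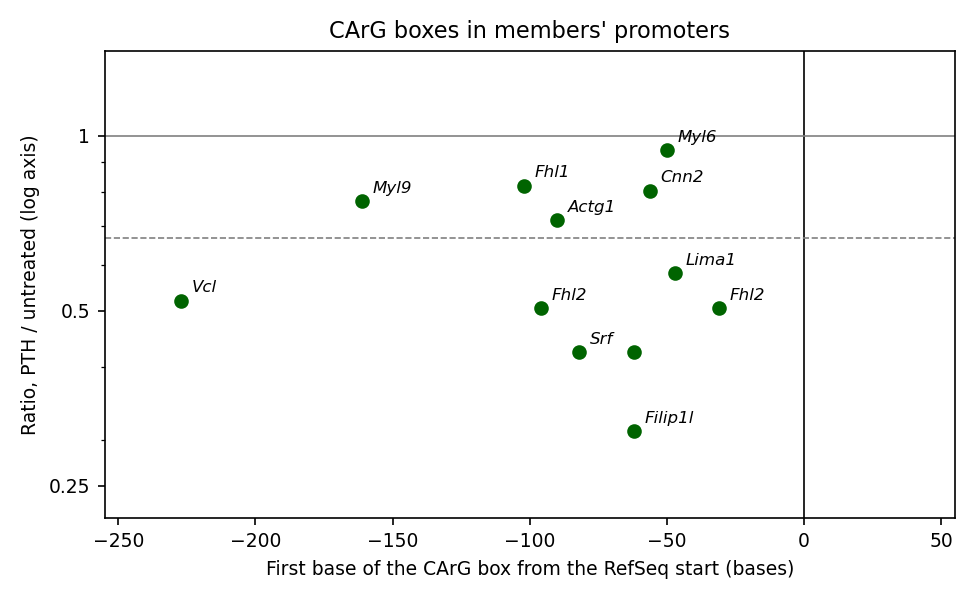
Each point is a CArG box in a member's promoter, placed by the distance of its first base from the RefSeq start (bases) and by the gene's ratio, PTH over untreated (log axis). The dashed line marks 1.5-fold lower. Boxes lay between 227 and 31 bases before the start, and the ratios of their genes ran from 0.310 for Filip1l to 0.945 for Myl6.

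The 4 actin genes were all below 1 and together made the largest part of the difference. Actb, a cytoplasmic actin, had 175752 counts in the PTH library and 310026 in the untreated library, a ratio of 0.551 (0.547 to 0.554), and was the actin called lower. Actg1, the other cytoplasmic actin, had 228481 counts after PTH and 310313 untreated, a ratio of 0.715 (0.711 to 0.719). Acta2, the smooth muscle alpha-actin that also marks contractile fibroblasts, was at 173552 counts after PTH and 214794 untreated, a ratio of 0.785 (0.780 to 0.790). Actg2, the enteric smooth muscle actin, was at 0.821 (0.806 to 0.836). So the cytoplasmic pair was further from 1 than the smooth muscle pair.

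Levels of different genes are set side by side as scaled CPM per kilobase of exonic length. In the PTH library Actg1, Acta2 and Actb were at 1243, 1143 and 949 CPM per kilobase. In the untreated library Actg1, Actb and Acta2 were the highest of the 39 genes, at 1739, 1723 and 1457 CPM per kilobase. By this measure Actb was below Acta2 in the PTH library and above it in the untreated library. Without the division by length Actb was above Acta2 in both, at 2542 against 2510 CPM after PTH and 4617 against 3199 untreated. Of the counts of the 4 actins, Actb took 29.4% in the PTH library and 36.1% in the untreated one, and Actg1 took 38.2% after PTH and 36.1% untreated. Exact binomial intervals on these shares were within 0.2 percentage points. In sum the 4 actins were at 8655 CPM after PTH and 12802 CPM untreated, a ratio of 0.676. Of the 7071 CPM by which the 39 genes were lower in sum, the actins made up 58.6%.

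Reads may be shared between the actins, since the coding sequences of Actb and Actg1 are 88.7% identical, and those of Acta2 and Actg2 are 84.2% identical. In GENCODE M21, 11 pseudogenes align to Actg1 at 90% identity or more. Their rows held 18982 counts in the PTH library and 28795 in the untreated library, a ratio of 0.640 (0.628 to 0.652), so the values of Actb and Actg1 are uncertain to the extent that reads were split. How such reads were counted is not stated in the labels. The skeletal muscle actin Acta1, no member of the set, had 28 counts after PTH and 124 untreated, a ratio of 0.219 (0.140 to 0.333), and it carries a CArG box in its promoter.

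**Figure D3:**
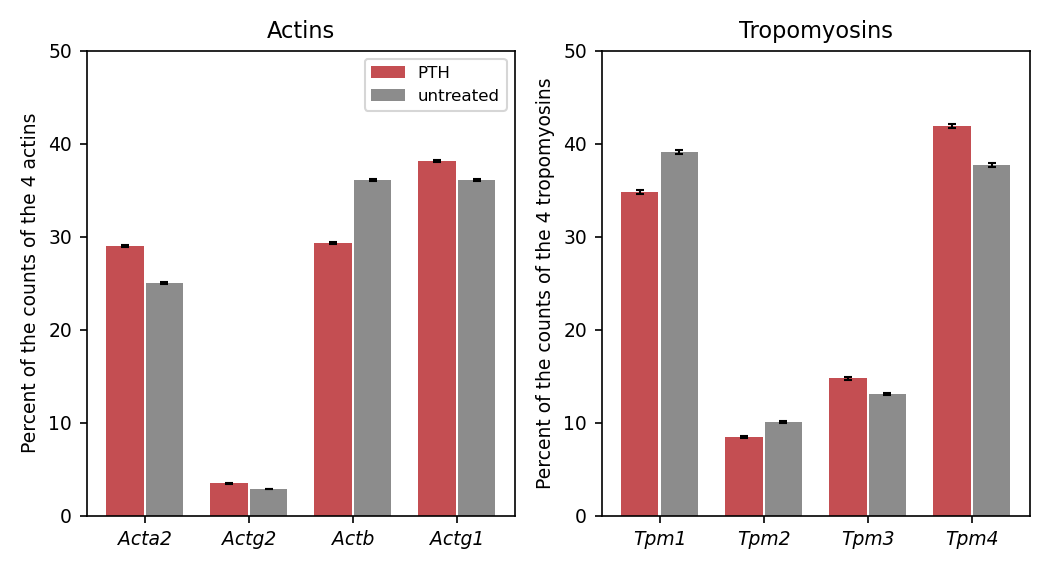
Share of each gene in the summed counts of the 4 actins (left) and the 4 tropomyosins (right), in percent, with the PTH library left of the untreated library. Error bars are 95% exact binomial intervals. Actb held 29.4% of actin counts in the PTH library and 36.1% in the untreated library, and Tpm4 held 41.9% of tropomyosin counts in the PTH library and 37.7% in the untreated library.

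Proteins that start or turn over filaments differed widely. Lmod1 encodes leiomodin 1, a filament nucleator of smooth muscle, and had the lowest ratio of the set. It had 1738 counts in the PTH library and 7087 in the untreated library, a ratio of 0.238 (0.226 to 0.251), which is 4.20-fold lower. Pfn1 encodes profilin, which supplies monomers to growing filaments, and was at 0.908 (0.895 to 0.920). Cfl1, which encodes the severing factor cofilin, was at 0.944 (0.935 to 0.953). Both stood near 1 at high depth, with 38555 and 81986 counts after PTH.

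Filip1l was grouped here with the genes of cross-linking proteins, and its ratio stood apart from theirs. Filip1l encodes a protein related to a filamin A interactor, and had 681 counts in the PTH library and 2133 in the untreated library, a ratio of 0.310 (0.284 to 0.338). The filamin genes themselves were close to 1, with Flna at 0.886 (0.880 to 0.892) and Flnc at 0.960 (0.936 to 0.984). The alpha-actinin genes Actn1 and Actn4 were at 0.951 and 0.846. The PTH library was the lower for all 5 genes, but past the 1.5-fold rule for Filip1l alone.

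The calponin family differed member by member. Calponins and transgelins bind actin filaments, and calponins restrain myosin. Cnn1, the smooth muscle calponin, had few counts, 157 in the PTH library and 353 in the untreated library, and a ratio of 0.432 (0.356 to 0.523). Cnn2 was at 0.804 (0.794 to 0.815) and Cnn3 at 0.960 (0.947 to 0.973). The isoform with the fewest counts was thus the lowest, and Cnn2 and Cnn3 had 42559 and 39695 counts after PTH. Tagln, or SM22, a classical smooth muscle marker, had 23554 counts after PTH and 31848 untreated, a ratio of 0.718 (0.706 to 0.730). Exons of other genes on the opposite strand cover 67.9% of its exonic length, so its value is uncertain if counting ignored strand. Its relative Tagln2 was at 1.07 (1.05 to 1.08), and Cald1, which encodes the filament-binding caldesmon, was at 1.10 (1.09 to 1.11).

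Of the 7 myosin and myosin kinase genes, 0 were called in either direction, where 3.54% of all rows were lower and 5.39% higher. With so few genes, 0 is near those shares. Myosin II is the motor of stress fibres, made of heavy chains, essential and regulatory light chains, and switched on by myosin light chain kinase. The regulatory light chain gene Myl9 was lowest, with 16553 counts in the PTH library and 20831 in the untreated library, a ratio of 0.772 (0.756 to 0.788). The second regulatory light chain gene, Myl12a, was at 0.881, and the essential light chain gene Myl6 at 0.945. The non-muscle heavy chains Myh9 and Myh10 were at 0.885 (0.878 to 0.892) and 1.02 (1.01 to 1.04), and the kinase gene Mylk was at 0.929. The value of Myh10 turns to a log2 ratio of -0.01 when scaled by total counts. Myh11, the smooth muscle heavy chain, was nearly absent, with 22 counts after PTH and 12 untreated, and its interval of 0.844 to 3.95 spans 1.

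Tropomyosins are coiled coils that lie along the filament, and their genes split by isoform. Tpm1 had 76233 counts in the PTH library and 88467 in the untreated library, a ratio of 0.837 (0.829 to 0.845), and Tpm2 was at 0.794 (0.778 to 0.809). Tpm3 and Tpm4 were at 1.06 (1.05 to 1.08) and 1.05 (1.04 to 1.06). All lay within 1.5-fold. Tpm4, the highest of the family per exonic length at 603 CPM per kilobase after PTH and 576 untreated, took 41.9% of tropomyosin counts after PTH and 37.7% untreated.

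The focal adhesion and LIM domain genes, the largest group, had the most called members. Of these 9 genes 5 were lower, where 3.54% of all rows were. Focal adhesions tie filaments to integrins, and several LIM proteins move between them and the nucleus. Vcl encodes vinculin, which links talin to actin, and had 33294 counts in the PTH library and 62170 in the untreated library, a ratio of 0.520 (0.513 to 0.527). Opposite-strand exons of another gene cover 25.5% of its exonic length. Fhl2, a LIM-only cofactor known as an SRF target, had 3584 counts after PTH and 6896 untreated, a ratio of 0.505 (0.485 to 0.526). Tgfb1i1, or Hic-5, a paxillin relative, had 6723 counts after PTH and 12797 untreated, a ratio of 0.510 (0.495 to 0.525). These 3 genes were each close to 2-fold lower, with the PTH library far below the untreated library relative to counting error.

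Lima1, which encodes the filament-bundling protein EPLIN, had 27245 counts in the PTH library and 45626 in the untreated library, a ratio of 0.580 (0.571 to 0.589). Pdlim7, a PDZ and LIM adaptor gene, had 5043 counts after PTH and 8608 untreated, a ratio of 0.569 (0.549 to 0.589). Its relative Pdlim5 lay just outside the rule, at 0.669 (0.657 to 0.682). Zyx, the gene of zyxin, which gathers at strained fibres, was at 0.745 (0.733 to 0.757), and Fhl1 at 0.820 (0.787 to 0.854). Tln1, which encodes talin, the integrin activator, was nearest to 1 of the group, at 0.870 (0.859 to 0.881).

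Per exonic length, the lower genes were mostly among the less abundant of the set. In order of untreated level per exonic length, 9 of the 10 lower genes ranked 20th or below among the 39, and Actb, ranked 2nd, was the exception. Of the other 29 genes, 11 ranked 20th or below. The order depends on the measure, and Vcl stood at the cut, ranked 20th. Without the division by length, Vcl and Lima1 were at 926 and 679 CPM untreated. Both were above Pfn1, at 614 CPM and ranked 10th per exonic length. In the scatter of levels the 10 genes lie below the body of the plot.

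**Figure D4:**
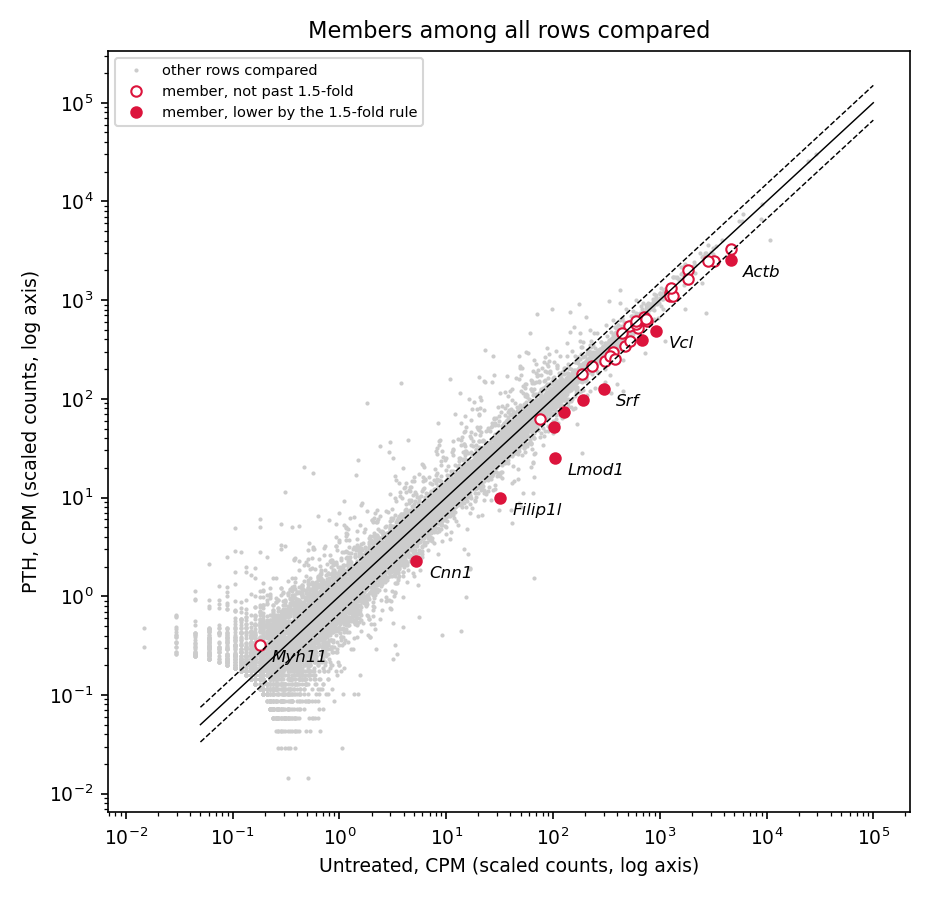
Scaled CPM in the PTH library against the untreated library, both on log axes, for rows compared with a count in each library. Grey points are other rows, red circles the 39 genes (filled where lower by the 1.5-fold rule), the solid line marks a ratio of 1 and the dashed lines 1.5-fold. The filled circles run from Cnn1, at 2.27 CPM after PTH and 5.26 untreated, up to Actb, at 2542 CPM after PTH and 4617 untreated.

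Other genes of the pathway were taken from 8 lists, 140 genes in all, and 7 of the lists are described here. Of these 133 were compared, 15 were lower and 6 higher, where 3.54% of all rows were lower and 5.39% higher. Their median log2 ratio was -0.10. Of 14 other MRTF and SRF target genes, 4 were lower, 1 was higher and 9 were not called. Their median log2 ratio was -0.47. Ccn1 and Ccn2, which encode matricellular proteins, were at 0.600 (0.595 to 0.605) and 0.273 (0.271 to 0.276). Opposite-strand exons cover 23.2% of the exonic length of Ccn2, so its value is uncertain if counting ignored strand. Ankrd1, a muscle ankyrin repeat gene, was at 0.401 (0.394 to 0.407), and Lmcd1, a LIM domain gene, at 0.410 (0.384 to 0.437). Synpo2, which encodes myopodin, an actin-bundling protein of muscle, was the exception, with 10338 counts in the PTH library and 1547 in the untreated library, a ratio of 6.49 (6.15 to 6.85). Of 10 immediate-early SRF targets, 5 were lower and 3 higher. Egr4 was lowest at 0.240 (0.218 to 0.265), Egr2 and Egr3 were at 0.333 and 0.356, and Fos was highest at 6.17 (5.88 to 6.48).

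Other structural genes of the filament system mostly stayed within 1.5-fold, as did most rows compared. Over all rows 3.54% were lower and 5.39% higher. Of 32 further actin-binding protein genes, 0 were called, with a median log2 ratio of -0.10. With so few genes, a count of 0 is not far from those shares. The most abundant were Fscn1, the bundling protein fascin, at 0.769 (0.760 to 0.777), and the monomer-binding thymosin genes Tmsb10 at 1.19 (1.18 to 1.21) and Tmsb4x at 0.869 (0.857 to 0.882). Actr3, of the branching Arp2/3 complex, was at 0.861. Of 32 further focal adhesion and LIM genes compared, Fhl3 at 0.411 (0.389 to 0.434) and Lmcd1 were lower, and Limch1, at 1.61 (1.56 to 1.67), was higher. Fhl3 belongs with Fhl1 and Fhl2 to a single family, and its 1898 counts after PTH and 4484 untreated place it lowest of the 3. Of 10 further actin, myosin II and calponin-type genes 6 were compared, and Acta1 alone was called. Smtn, the smoothelin gene, was at 0.695 (0.675 to 0.716), and the light chain genes Myl12b and Myl6b were at 0.849 and 0.635, the first with 26.7% of its exonic bases also in a neighbour transcribed in the same direction.

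Cytoskeletal genes outside the actin system served as a comparison. Of 14 tubulin and intermediate filament genes compared, the median log2 ratio was 0.02. Nes, the intermediate filament gene nestin, was lower at 0.567 (0.520 to 0.618), and Krt8, a keratin gene with 50 counts after PTH and 7 untreated, was higher at 6.94 (3.13 to 18.1). The other 12 were neither. Over all rows 3.54% were lower and 5.39% higher.

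**Figure D5:**
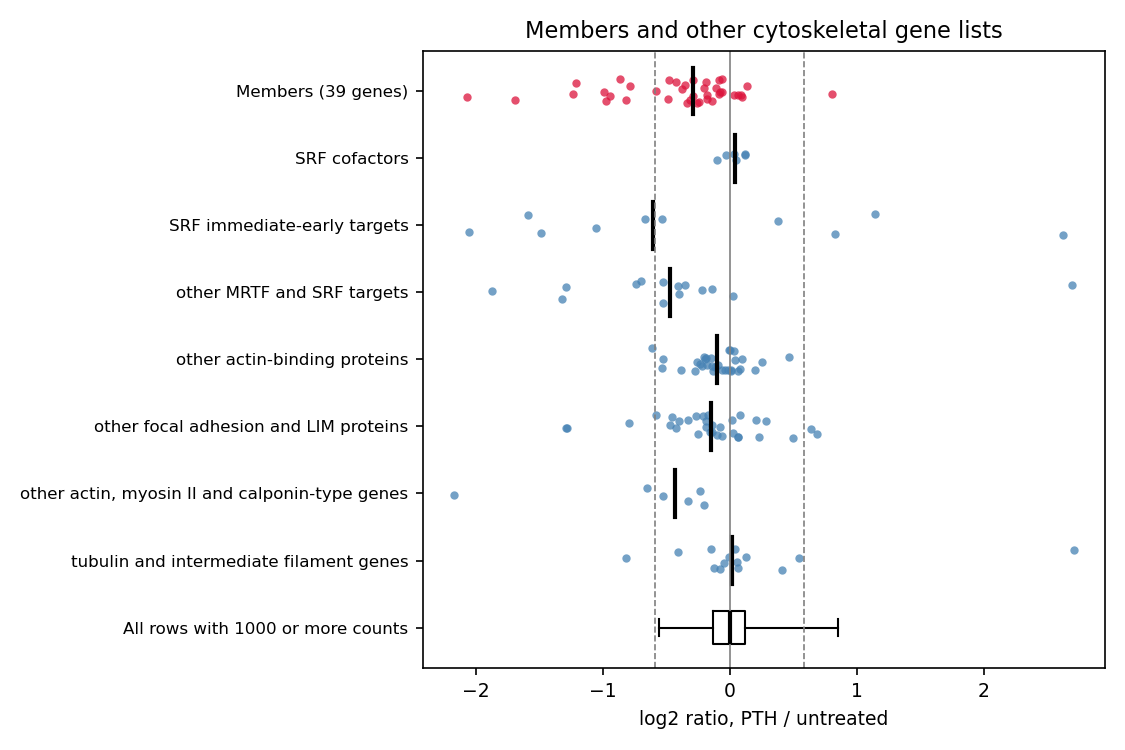
log2 ratio, PTH over untreated, for the 39 genes (red) and 7 other lists (blue), 1 point per gene compared, with black bars at the medians and dashed lines at 1.5-fold. The box holds the middle part of all rows with 1000 or more counts, with whiskers over the central 95%, from -0.56 to 0.85. The medians were -0.28 for the 39 genes, -0.47 for other MRTF and SRF targets, 0.04 for SRF cofactors and 0.02 for tubulin and intermediate filament genes.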

How the data were processed

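The authors deposited raw whole-number counts per gene, without normalisation. The submitters' processing notes name HISAT2 and mm10. The counting tool, annotation and strand setting are not stated there or in the labels. Nothing states separate cultures or batches. Counts were scaled by edgeR 4.0.16 TMM effective library sizes (R 4.3.3) on rows with 20 or more counts in total. A quasi-likelihood fit was not possible with 1 library per group. Ratios have 95% exact conditional intervals (scipy 1.17.1, Python 3.11.15). They were tested on simulated data with counting error only, which cannot show how they hold under variation between cultures. Log2 ratios add 0.5 count. Exonic lengths, overlaps and pseudogenes (minimap2 2.31; identity of 90% or more over 50% or more of the pseudogene) come from GENCODE M21, promoters from RefSeq. CPM use the TMM sizes, and actin identity uses the longest open reading frame. Depth was 70036872 counts after PTH and 66302211 untreated. Alternatives were 3 scalings, other filters, fold limits, widened intervals and left-out members.

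The 39 genes and all lists were chosen with earlier results of these data known. All 39 are named. Of each other list, up to 4 genes called with the interval bound farthest from 1 are named, and the genes with most counts where fewer than 2 were called. Ccn1, Myocd, the markers and the genes with a CArG box outside the 39 were named after their values were seen. The result of 1 of the 8 other lists is not reported here, though its genes are in the total over all lists.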

Additional observations from a re-analysis of the deposited data

How the results depend on the processing

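The count of 10 lower genes among the 39 became 11 with total-count scaling, which adds Pdlim5. It stayed at 10 with DESeq2 1.42.0 size factors, upper-quartile factors, no count filter and a minimum of 100 counts. It was 9 without Vcl and Tagln, the 2 genes with other genes' exons over 20% or more of their exonic length. It was also 9 without the 8 with pseudogene copies, an alternative chosen after seeing the data. It was 16 at the lower fold limit tried (a ratio below 0.8), 3 at 2-fold, and 4 and 2 with intervals widened for coefficients of variation of 0.1 and 0.2; these limits are wider or narrower by construction. No member was higher under any of these. The median log2 ratio of the 39 ran from -0.32 to -0.26. Myh10 reversed to -0.0065 with total counts. Over all rows, 581 lower and 884 higher became 983 and 1386 with no filter, 307 and 543 at 100 counts, 1213 and 1495 at the lower fold limit, 262 and 517 at 2-fold, and 267 and 474 with the wider interval of 0.2. The other pathway genes, 15 lower and 6 higher, were 29 and 12 at the lower fold limit, 9 lower at 2-fold, and 5 and 3 with the interval of 0.2. No paired analysis was possible because each group has 1 library, and none could be left out. Depth limits Cnn1 and Myh11 most.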
